A study of Daphnia magna with 20 samples.

Results

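Whole water fleas (Daphnia magna) kept for 48 h with particles of lithium cobalt oxide (LCO) at 1 mg/L were compared with animals kept for the same time in dissolved lithium and cobalt. The comparison used 10 of the 20 RNA-seq libraries of the series. These were the 5 titled low (replicates 1, 2, 3, 5 and 6) and the 5 titled Ion (replicates 1, 3, 4, 5 and 6), chosen by title alone. The other 10 libraries, 5 of untreated controls and 5 of animals at 10 mg/L LCO, gave reference levels.

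All animals were wild type by their labels and 5 days old at the start, and each library came from a pool of 10. Alfalfa suspension was given as food when the exposure began and once more during it. The ion group held 66 µg/L lithium as LiCl and 15 µg/L cobalt as CoCl2 in moderately hard water, an amount set to what LCO releases at 10 mg/L. The ion group is therefore not matched in dose to 1 mg/L LCO, and the form of the metal and its amount cannot be told apart here. The treatment tag of replicate 1 at 10 mg/L reads untreated, whereas its title places it in the LCO group.

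LCO is a layered oxide from the cathodes of lithium-ion batteries, and in water it releases some lithium and cobalt. Daphnia are filter feeders that take suspended particles into the gut, whereas dissolved ions can also enter across the gills and body surface. Cobalt can take the place of other metals in enzymes and can mimic low oxygen, and lithium is known from other animals to inhibit the kinase GSK3. The deposited identifiers are not paired with gene names, and 0 of 26646 matched the RefSeq gene table of assembly ASM2063170v1.1. No gene function is therefore given, and the labelled material could not be checked against marker genes. In RNA from whole animals, fewer cells of a type and less RNA per cell cannot be told apart.

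Total estimated counts ran from 25111305 to 37878255 in the LCO 1 mg/L libraries and from 20744445 to 29234877 in the ion libraries. Levels are given as CPM, counts relative to the scaled total of their library. Distances between libraries were the root mean square difference in log2 CPM over the 16163 targets with enough counts to test. LCO 1 mg/L replicates 1, 2, 3 and 6 lay 0.477 to 0.561 from the mean of their 4 fellow libraries and 0.8 to 0.952 from the ion mean. LCO 1 mg/L replicate 5 lay 0.977 from its own group, 0.972 from the ions and nearest to LCO at 10 mg/L, at 0.845. Ion replicates 1, 3, 4 and 6 lay 0.539 to 0.688 from their own group and 0.833 to 1.05 from LCO at 1 mg/L. Ion replicate 5 lay 0.737 from its own group, 0.668 from LCO at 1 mg/L and nearest to LCO at 10 mg/L, at 0.613. Replicate 5 of each group thus stood apart from its fellows, and results that rest on these libraries are given with and without them.

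At 1 mg/L LCO and with ions, 6607 targets differed, 40.9% of those tested (quasi-likelihood test in edgeR, Benjamini-Hochberg adjusted p under 0.05). Of these, 3247 were higher with LCO (20.1% of tested targets) and 3360 were higher with ions (20.8%). The median log2 fold change, LCO at 1 mg/L over ions, was 0.67 among the higher and -0.70 among the lower targets, beside 0.02 over all tested targets. Neither direction held a stable majority, since the share of higher targets was 49.1% and reached 58.3% with no filter on low counts. Without both replicate 5 libraries, 7288 targets were called, 3841 higher and 3447 lower. All p-values measure the spread between pools, and the labels do not say whether pools had separate vessels.

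Most differences were modest in size. A difference over 1.5-fold was seen in 1889 higher (11.7%) and 2039 lower targets (12.6%), and one over 2-fold in 821 (5.08%) and 972 (6.01%). Over 4-fold there were 209 higher (1.29%) and 148 lower (0.916%), and over 8-fold 74 (0.458%) and 33 (0.204%). The values of the 5 LCO and 5 ion libraries did not overlap for 3279 targets (20.3%), 1595 with LCO above (9.87%) and 1684 with ions above (10.4%). Ion replicate 5 lay below every LCO 1 mg/L library in 499 of the 821 higher targets, and the other ion libraries in 693 to 751. It lay above every LCO 1 mg/L library in 662 of the 972 lower targets, and the others in 851 to 955. Overlap was not computed without ion replicate 5. No target was at 0 in every library of one group and at 10 or more counts in every library of the other.

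**Figure D1:**
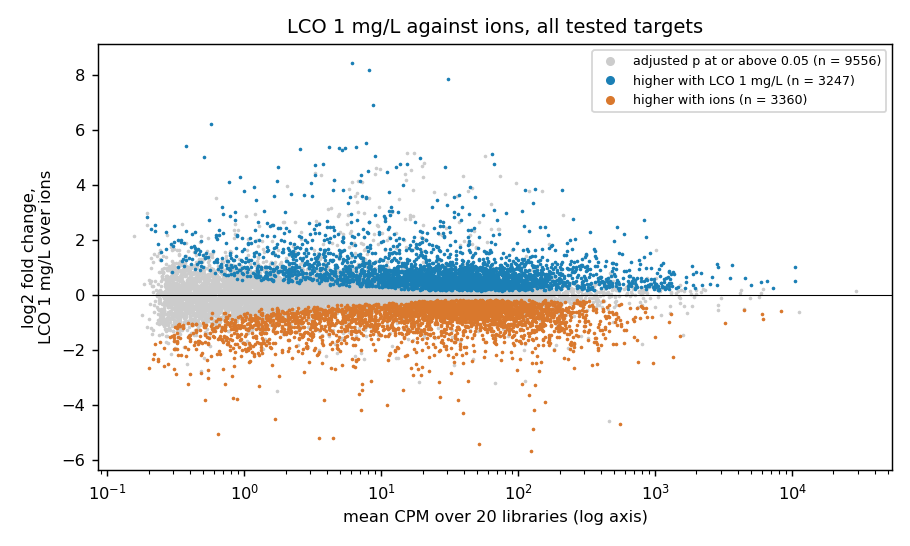
Each point is 1 of 16163 tested targets, with its mean CPM over 20 libraries (log axis) against its log2 fold change, LCO 1 mg/L over ions. The 3247 called targets above 0 and the 3360 below 0 are spread over the whole range of abundance, and the uncalled ones (grey) widen at low CPM.

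Identifiers are given for the 2 higher and 2 lower targets with the smallest p among those whose groups did not overlap. KZS18100, a target of 10145 bases, stood at 44.3, 37.3, 35.2, 33.5 and 35.9 CPM in LCO 1 mg/L replicates 1, 2, 3, 5 and 6. In ion replicates 1, 3, 4, 5 and 6 it stood at 12, 11.2, 10.5, 12.3 and 12.8 CPM. Every LCO library was thus well above every ion library, and the ion libraries lay close together. The means were 37.2 CPM ± 4.2 and 11.7 ± 0.888 (SD, n = 5 each), and the log2 fold change was 1.67 (SE 0.11, adjusted p 1.9e-07 in edgeR's quasi-likelihood test). The control mean was 27.6 CPM and the mean at 10 mg/L was 28.5, so both references lay between the compared groups. Its counts were fractional in 16 of 20 libraries, which means that reads were divided with a similar target and that its level is uncertain.

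KZS15806, of 3413 bases, had whole counts in every library. It stood at 63.8, 61.6, 57, 43.9 and 59.6 CPM in the LCO 1 mg/L libraries, in the order of replicates given above. The ion libraries held 21.5, 14.2, 14.6, 19.1 and 14.6 CPM. LCO replicate 5 was the lowest of its group and still above every ion library, by more than the whole range of the ion group. Its log2 fold change of 1.77 had an SE of 0.13 and an adjusted p of 2.8e-07 (edgeR). Control stood at 38.2 CPM ± 4.6 and LCO at 10 mg/L at 37.4 ± 3.45 (SD, n = 5), again between both groups. Against control the fit put LCO at 1 mg/L higher by 0.58 on the log2 scale (adjusted p 0.0076) and the ions at -1.18 (adjusted p 3.2e-06), in comparisons that share the control libraries.

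KZS16074, of 1642 bases, was the lower target with the smallest p. Its LCO 1 mg/L libraries held 26, 35.5, 22.1, 23.8 and 29.7 CPM, and its ion libraries 396, 372, 399, 158 and 383. Ion replicate 5 stood far below the other ion libraries, yet above every library of the other 3 groups. Group means (n = 5, SD) were 27.4 CPM ± 5.35 and 342 ± 103. On the log2 scale the change was -3.64 ± 0.26 (SE), with an adjusted p of 1.9e-07 in edgeR. Control stood at 44.9 CPM ± 15.4 and LCO at 10 mg/L at 64.3 ± 10, both far nearer to LCO at 1 mg/L than to the ions.

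KZS07994, of 1249 bases, separated the groups with little spread on the LCO side. The LCO 1 mg/L libraries lay at 88.5, 87.6, 89.2, 93.5 and 95.8 CPM and the ion libraries at 202, 256, 246, 216 and 195. The log2 fold change was -1.30 (SE 0.1, adjusted p 5.2e-07 in edgeR's quasi-likelihood test). Control stood at 83.8 CPM ± 13.9, and the fit found no difference from LCO at 1 mg/L that passed the threshold (log2 fold change 0.12, SE 0.1, adjusted p 0.5). At 10 mg/L LCO the level was 141 CPM ± 10.2, between the lower dose and the ions. All 4 targets kept their direction and an adjusted p of at most 0.000218 in every alternative run.

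**Figure D2:**
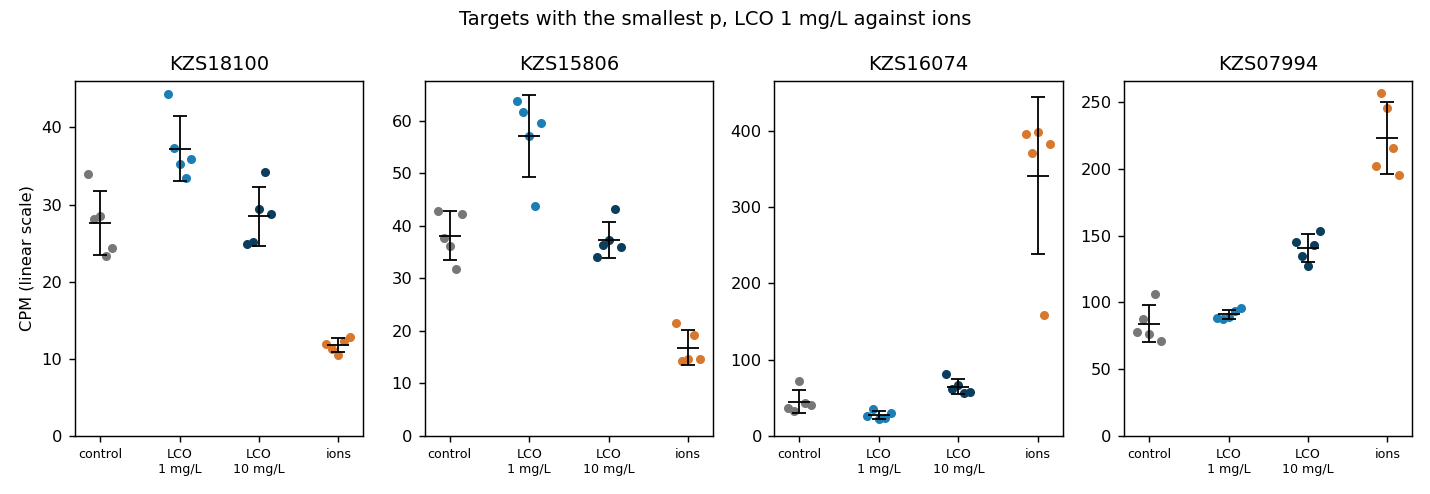
CPM (linear axes from 0) of the 4 identified targets in each of 20 libraries, with the mean and SD of 5 libraries per group. LCO 1 mg/L and ions do not overlap in any panel, and in KZS16074 ion replicate 5, at 158 CPM, lies apart from the other ion libraries.

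The levels in control and at 10 mg/L LCO show on which side each difference lay. Neither set of libraries entered the contrast. Among the 3247 higher targets the control mean lay on the LCO 1 mg/L side of the midpoint between both groups (log2 scale) in 81.8%, and among the 3360 lower targets in 89.3%. Over all tested targets, called or not, the same shares were 70.9% for those with a higher mean fitted level at 1 mg/L and 75.3% for the others. The LCO 10 mg/L mean lay on the 1 mg/L side for 65.4% of the higher and 74.3% of the lower targets, beside 63.2% and 64.1% over all tested targets. Without both replicate 5 libraries and control replicate 1, a choice made after the data were seen, the control shares were 81.7% and 83.8%.

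In order of level, the ions were at an end of the 4 groups for most called targets. The ion mean was the lowest of the 4 groups in 81.7% of the higher targets and the highest in 96.9% of the lower targets. LCO at 1 mg/L was the highest of the 4 in 29.6% of the higher targets and the lowest in 48.6% of the lower targets. The control mean was the highest of all in 62.5% of the higher targets, and the lowest in 43.2% of the lower ones. Set side by side, the median log2 difference from control among the higher targets was -0.12 at 1 mg/L LCO and -0.72 with ions. Among the lower targets it was -0.03 and 0.67. The shares and medians come from targets chosen for a difference between LCO and ions, a choice that itself favours an end place for either group. Shares of this order over all tested targets were not computed. The medians also come from comparisons that share control libraries.

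Library by library, all 5 ion libraries lay above all 15 others of the series in 328 tested targets (2.03%) and below them in 272 (1.68%). The 5 LCO 1 mg/L libraries lay above all 15 others in 35 targets (0.217%) and below them in 11 (0.0681%). Group means gave a like picture for changes over 2-fold. The ion mean was over 2-fold below each of the other 3 groups in 130 of the 821 higher targets, and over 2-fold above each of them in 273 of the 972 lower targets. The mean at 1 mg/L LCO stood over 2-fold above each other group in 18 of the 821, and over 2-fold below each in 28 of the 972. The difference between these counts was not tested.

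The sets over 2-fold were also followed through single libraries, as the median log2 CPM over their targets relative to the control mean. On the 821 higher targets the LCO 1 mg/L libraries lay at -0.46, 0.39, -0.01, -0.19 and -0.24 (replicates 1, 2, 3, 5 and 6). The ion libraries lay at -1.57, -1.73, -1.96, -0.92 and -1.71 (replicates 1, 3, 4, 5 and 6). The control libraries ran from -0.13 to 0.16. LCO 1 mg/L replicate 2 thus lay above every control library, replicate 3 inside their range, and replicates 1, 5 and 6 below every control library. The ion libraries lay well below the control mean. The 10 mg/L libraries ran from -0.96 to -0.51, below every LCO 1 mg/L library and above the ion libraries other than replicate 5, whose value fell inside their range. On the 972 lower targets the LCO 1 mg/L libraries lay from -0.24 to -0.02, inside the control range of -0.51 to 0.59. There the ion libraries lay at 1.20, 1.51, 1.60, 0.54 and 1.20, and the 10 mg/L libraries from 0.05 to 0.51. Ion replicate 5 was the ion library nearest to control on both sets.

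**Figure D3:**
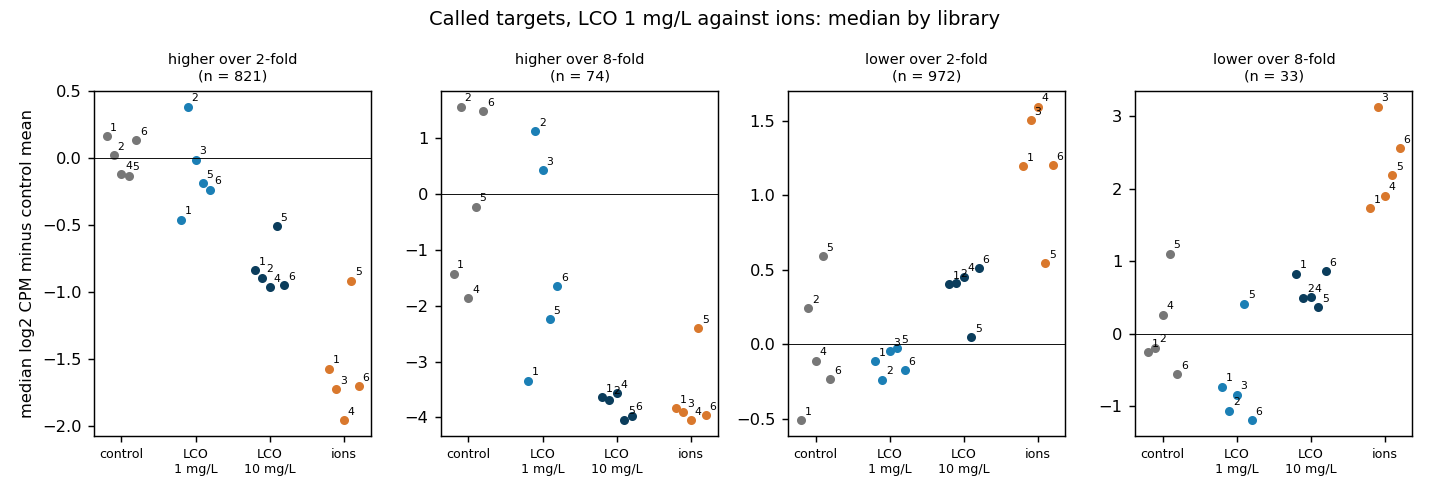
Median log2 CPM minus the control mean, over 4 sets of called targets (higher or lower at 1 mg/L LCO than with ions, over 2-fold or over 8-fold), 1 point per library with its replicate number. On the 821 and 972 targets over 2-fold the LCO 1 mg/L libraries lie near control and the ion libraries apart, with ion replicate 5 at -0.92 and 0.54. On the 74 targets higher over 8-fold the LCO 1 mg/L libraries run from -3.34 to 1.13.

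Because these sets were chosen with the libraries they describe, each of the 10 libraries was also left out in turn. Targets called over 2-fold were chosen from the other 19 libraries, and the left-out library was placed relative to the midpoint of the remaining group means. Left out in this way, LCO 1 mg/L replicates 1, 2, 3, 5 and 6 lay at 0.31, 0.75, 0.51, 0.35 and 0.64 (median log2 CPM) on the 746 to 931 higher targets. On the 770 to 1028 lower targets they lay at -0.57, -0.73, -0.51, -0.36 and -0.67. All 5 thus fell on the side of their own group. Ion replicates 1, 3, 4 and 6 lay at -0.56, -0.74, -1.05 and -0.66 on the higher targets and at 0.60, 0.94, 1.01 and 0.61 on the lower ones, also on their own side.

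Ion replicate 5 was the exception, and whether this library is what its label says was not tested. On the 1204 higher targets chosen without it, it lay at 0.25, on the LCO side of the midpoint, where the remaining groups had medians of 0.67 and -0.67. On the 1114 lower targets it lay at -0.22, again on the LCO side, between 0.69 for the other ion libraries and -0.69 for LCO. When this library was left out, calls rose from 6607 to 7398, changes over 2-fold to 1212 higher and 1128 lower, and changes over 8-fold to 129 higher. For KZS18100, KZS15806 and KZS07994 its values of 12.3, 19.1 and 216 CPM lay within the range of the other ion libraries. Those targets were chosen for groups that did not overlap with this library included, so these values do not bear on its label.

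**Figure D4:**
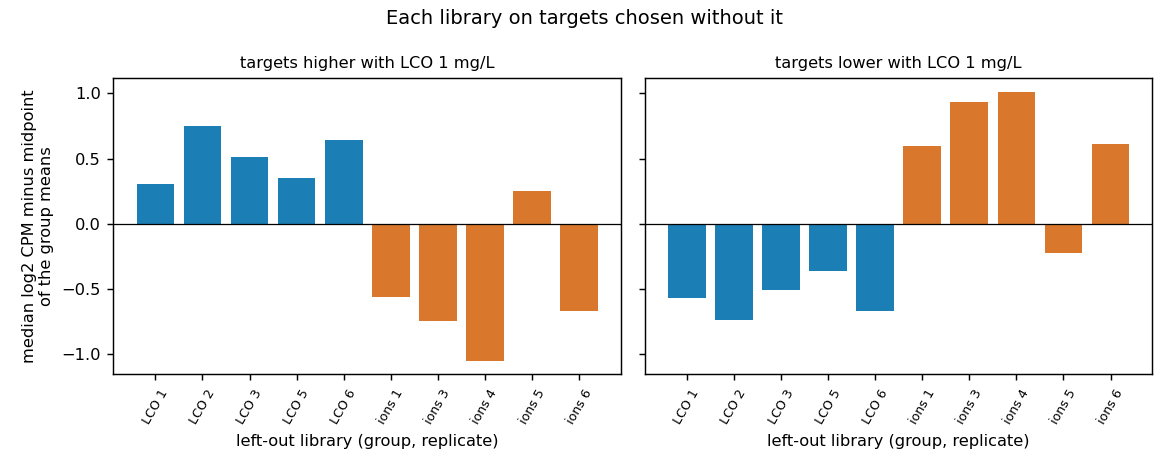
For each of the 10 libraries compared, the median log2 CPM relative to the midpoint of the LCO 1 mg/L and ion means, on targets called over 2-fold without that library (left, higher with LCO; right, lower). Bars start at 0; the 5 LCO libraries and 4 ion libraries fall on their own side, and ion replicate 5 falls on the LCO side at 0.25 and -0.22.

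Among the 100 most abundant targets, more were called higher with LCO than lower. Ranked by mean CPM over the 20 libraries, a rank that is not scaled by length, the 100 most abundant targets had 52 called higher and 9 called lower, beside 20.1% and 20.8% of all tested targets. Their median log2 fold change was 0.27, beside 0.02 over all tested targets. Without both replicate 5 libraries the counts were 54 and 9. Ranked by mean TPM (the deposited unit that is scaled by target length), a choice made after the data were seen, they were 49 and 17. Without LCO 1 mg/L replicate 2 they were 49 and 5. The imbalance was smaller in other cuts of the same ranking, with 4 higher and 3 lower in the first 10 and 364 and 298 in the first 1000. Over 2-fold the first 1000 held 72 higher and 100 lower.

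The 52 abundant higher targets together held 146766, 143691, 132116, 134826 and 144091 CPM in the LCO 1 mg/L libraries, and 103379, 92643.5, 87477.3, 95232.9 and 93050.1 CPM in the ion libraries. The groups did not overlap. Control, at 116041 to 136279 CPM, lay above every ion library and reached into the range of LCO. At 10 mg/L they held 133868 to 142875 CPM, inside the range at the lower dose. The 52 were chosen for being higher, so these sums describe them and test nothing. Their single log2 fold changes were small, from 0.24 to 1.19 with a median of 0.49. The 9 lower targets held 24682.9 to 28458.5 CPM with LCO at 1 mg/L, 42260.2 to 52812.4 with ions and 24141.1 to 39802.2 in control.

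Single abundant targets differed in where the references lay. The target of rank 3, of 6385 bases, held 7627, 5716.3, 8308, 11966.5 and 9412.5 CPM with LCO at 1 mg/L and 5286, 2852, 2295, 4699 and 5716 with ions. The groups almost touched, and the log2 fold change was 1.05 (SE 0.26, adjusted p 0.0038, edgeR). At 10 mg/L its mean was 22029 CPM against 7349 in control, and every library at 10 mg/L lay above every library of the other groups. The target of rank 4, of 1218 bases, held 12095 to 14501 CPM at 1 mg/L and 8328 to 10337 with ions (log2 fold change 0.51, SE 0.12, adjusted p 0.0025, edgeR). Its control mean of 7486 CPM lay below both, and its mean at 10 mg/L, 12539, lay near that of the lower dose. Rank 6 held 6952 to 10000 CPM at 1 mg/L and 6007 to 7323 with ions, with overlap and an adjusted p of 0.036 (edgeR) that was lost in 4 of 20 alternatives, among them those without LCO 1 mg/L replicate 2 (0.0683) or 6 (0.0661).

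Among abundant targets lower with LCO, that of rank 8, of 600 bases, held 3742, 4034, 4461, 4592 and 5136 CPM at 1 mg/L. With ions it held 7220, 9116, 7921, 8711 and 6372 CPM, with no overlap (log2 fold change -0.84, SE 0.18, adjusted p 0.0017, edgeR). Control was wide, at 4081 to 9241 CPM, and covered most of both ranges. Rank 5, of 1241 bases, had a mean of 6978 CPM ± 737 under LCO and 10286 ± 1963 with ions over 5 libraries each (log2 change -0.56, SE 0.15, adjusted p 0.0064, edgeR; errors are SD). Its groups overlapped, with ion replicate 6 at 7598 CPM. Rank 10 stood at 5081 CPM ± 980 and 8101 ± 2753, also with overlap. Its adjusted p of 0.038 (edgeR) was lost in 13 of 20 alternatives, among them 8 of the 10 that left out 1 library, all but ion replicates 1 and 5, with adjusted p from 0.0505 to 0.172.

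The largest changes were uneven within groups. Of the 74 targets higher over 8-fold, 12 (16.2%) had groups that did not overlap, beside 52% of the 821 higher over 2-fold. Over all tested targets 20.3% had no overlap, 9.87% with LCO above. In 68 the LCO 1 mg/L libraries spanned over 8-fold among themselves. LCO 1 mg/L replicates 2 and 3 were above all ion libraries in 62 and 64 of the 74, and replicate 1 in 20. Relative to control, the 74 lay at a median log2 CPM of -3.34 in LCO replicate 1, -2.24 in replicate 5, -1.65 in replicate 6, 0.43 in replicate 3 and 1.13 in replicate 2. The control libraries also spread widely on these targets, from -1.87 to 1.57. The ion libraries lay from -4.05 to -2.40 and the 10 mg/L libraries from -4.04 to -3.56. In the group means, LCO at 10 mg/L lay beyond the ions in 46 of the 74 (62.2%). The same share was 10.9% of the 3247 higher targets and 20.5% of all tested targets with a higher fitted level at 1 mg/L. Low levels on the set of 74 were thus found in the ion group, at the higher dose and in LCO 1 mg/L replicate 1. The ion means of the 74 had a median of 0.432 CPM, so the order of ions and 10 mg/L LCO rests on low levels.

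The 33 targets lower over 8-fold showed the reverse spread. The ion libraries spanned over 8-fold in 25 of them and the LCO 1 mg/L libraries in 11. In 13 (39.4%) the groups did not overlap, beside 52.8% of the 972 lower over 2-fold. Over all tested targets 10.4% had no overlap with ions above. Replicate 5 of LCO at 1 mg/L was below every ion library in 15 of the 33, and its fellows in 24 to 26. Without that library 86 targets were lower over 8-fold. The control mean lay on the LCO 1 mg/L side of the midpoint in 20 of the 33 (60.6%). This share was 89.3% of all called lower targets, 75.3% of all tested ones with a lower fitted level, and 93.2% of the 74 higher over 8-fold. Among the 33 the median log2 difference from control was -1.46 at 1 mg/L LCO and 2.59 with ions. Both groups thus lay away from control on this set.

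Examples were taken by size of change among targets with a mean of at least 5 CPM over the 10 libraries compared. Target of rank 5533, of 1940 bases, held 0.25, 85.5, 56.3, 0.492 and 0.909 CPM in the LCO 1 mg/L libraries and 0 to 0.236 in the ion libraries. High values were found in LCO replicates 2 and 3 and in control replicates 2 and 6, at 233 and 232 CPM, whereas the other 3 control libraries lay at 0.224 to 5.85. Every library at 10 mg/L lay at or below 0.209 CPM. The fitted log2 change was 7.87 (SE 2.15, adjusted p 0.0074, edgeR), a size that depends on how values near 0 are treated. The call was lost in 2 of the 19 alternatives that gave this target an adjusted p. One of the 2 was limma on log2(TPM + 1), at 2.48 with an adjusted p of 0.162. With the compared groups alone the target did not pass the filter on low counts and was not tested. It entered the main fit only with the libraries of the other groups counted in.

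The targets of rank 9627 and 9471 rested on LCO 1 mg/L replicate 5. In that library they stood at 85 and 48.2 CPM, and in the other libraries of the group at most at 0.444 and 1.02. Leaving it out, their log2 fold changes fell from 8.18 and 6.91 to 2.22 and 2.59, with adjusted p of 0.5 and 0.28 (edgeR). The first also missed the threshold without ion replicate 1, 4 or 6, at adjusted p from 0.051 to 0.055. Among the alternatives that gave an adjusted p, the calls were lost in 8 of 17 and 5 of 18. With the compared groups alone neither target passed the filter on low counts, so neither was tested there. The DESeq2 Wald test gave neither an adjusted p. The target of rank 9627 also had none after thinning. Control replicate 1 was the other library with high values, at 74.2 and 115 CPM. In all, LCO 1 mg/L replicate 5 exceeded each of its 4 fellow libraries over 8-fold in 228 tested targets, of which 19 (8.33%) were called higher and 6 (2.63%) lower against the ions, beside 20.1% and 20.8% of all tested targets.

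On the side of the ions, the target of rank 1392, of 635 bases, held 16, 1203, 26.6, 312 and 23.1 CPM in the ion libraries and 2.59 to 11.4 at 1 mg/L LCO. All ion libraries lay above all LCO 1 mg/L libraries, with ion replicates 3 and 5 far above the others (log2 fold change -5.65, SE 1.5, adjusted p 0.0062, edgeR). Without ion replicate 3 the log2 fold change was -3.88. At 10 mg/L it was also uneven, at 14.5 to 579 CPM, with replicate 5 highest. Rank 3600, of 1195 bases and with fractional counts in 15 libraries, again peaked in ion replicates 3 and 5, at 356 and 177 CPM. Its other ion libraries lay at 1.47 to 23 CPM. With LCO at 1 mg/L it held 0.389 to 11.6 CPM, so the groups overlapped. Rank 10963, of 515 bases, held 1.47 to 30 CPM with ions and 0.0677 to 1.19 with LCO at 1 mg/L, and its highest ion values were once more in replicates 3 and 5.

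Calls were more frequent among abundant targets. In 5 classes of equal size by mean CPM, the share called rose from 16.6% in the lowest to 62.8% in the highest, where 30.2% were higher with LCO and 32.5% lower. The median size of the log2 fold change among called targets was 1.28 in the lowest class and 0.59 in the highest. Direction did not follow target length evenly over 5 classes of equal size. In the shortest class, up to 866 bases, 15.2% of targets were called higher with LCO and 16.3% lower. In the class of 866 to 1495 bases, the shares were 23.2% and 16.6%, and in the longest class, from 3954 bases, 18.7% and 26.7%. Called lower targets had a median length of 2263 bases, called higher ones 1867, and all tested targets 1866. Targets with fractional counts in any library were called in 32.9% of cases, those with whole counts in 43.4%.

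**Figure D5:**
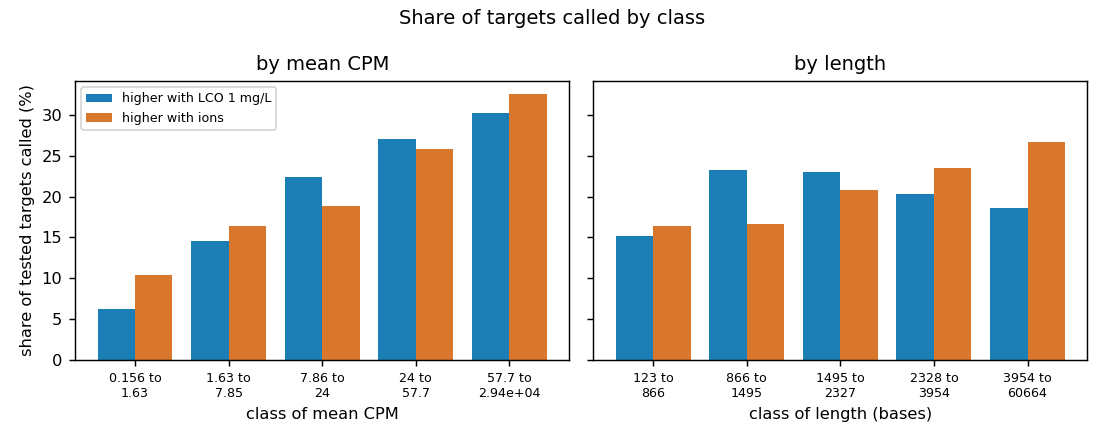
Share of tested targets called higher with LCO 1 mg/L or higher with ions, in 5 classes of equal size by mean CPM (left) and by target length in bases (right); the class limits stand below the bars. Both directions rise with abundance, and in the longest class 18.7% are higher with LCO and 26.7% higher with ions.

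Library-wide values did not separate the groups. The 100 most abundant targets of each library held 31.8%, 31.3%, 30.2%, 28.7% and 30.4% of the counts with LCO at 1 mg/L, and 28.3%, 28.7%, 28.4%, 29% and 30.2% with ions. The groups overlapped, and the means of 30.5% and 28.9% differed with a two-sided exact permutation p of 0.0556 (adjusted p 0.278 over 5 library-wide values). Without LCO 1 mg/L replicate 5 the exact p was 0.0159, and without ion replicate 6 it was 0.0317, both unadjusted. In TPM the difference turned to -1.07 percentage points (exact permutation p 0.294), and the differences for the 10 and 1000 most abundant targets and for mean length turned sign too. The smallest p that 5 against 5 libraries allow is 0.00794. For the 10 and the 1000 most abundant targets the exact p was 0.698 and 0.214. The mean target length weighted by counts was 3449 bases ± 53.7 with LCO and 3483 ± 80.9 with ions (exact permutation p 0.452). At equal depth 14890 ± 128 and 14949 ± 158 targets had at least 10 counts (exact permutation p 0.532). These misses do not show that the groups were alike in these values.

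Ion libraries varied more among themselves than LCO 1 mg/L libraries. Within groups, the median SD of log2 CPM over targets was 0.327 with ions and 0.231 with LCO at 1 mg/L, and the SD was larger with ions in 69.4% of targets. Control, at 0.298, lay near the ions, and LCO at 10 mg/L, at 0.224, near the lower dose. Without replicate 5 of each compared group the medians were 0.263 with ions and 0.195 with LCO at 1 mg/L. This spread was not tested between groups. Ion libraries also had fewer counts on average than LCO 1 mg/L libraries, and the SD was not computed at equal depth.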

How the data were processed

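Estimated counts were deposited by the authors as reads per target, not normalized, with TPM scaled by effective length and target lengths in bases as the other deposited columns, per the file headers. Columns are named as kallisto names them, but program, version, annotation and genome build were not given in the sources used here. Members and lists were chosen with earlier results of these data known. Preset lists by product name needed gene names and were not run.

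Counts were rounded and filtered with filterByExpr over the 4 groups (minimum count 10, minimum total 15), which kept 16163 of 26646 targets. TMM-scaled libraries entered 1 fit of all 20 libraries in edgeR 4.0.16 (R 4.3.3) with group as its term, tested by glmQLFTest. SE is the size of the log2 fold change over the square root of F. For log2 CPM a prior count of 2 was added. Identified targets were the 2 higher and 2 lower with the smallest p and no overlap. Those given by rank were the 3 most abundant called and the 3 of largest change (mean CPM of at least 5) per direction. The fit was tested on simulated counts.

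No replicate pair agreed within sampling noise. Library-wide values had exact permutation tests. Alternatives were DESeq2 1.42.0 size factors and Wald test, limma 3.58.1 on log2(TPM + 1), other filters, the compared groups alone, replicate number as a block, thinning to the smallest total, and left-out libraries. Counting intervals are not given, since replicates differed by far more than counting error (smallest chi-square per degree of freedom 29.5). Figures were drawn with matplotlib 3.10.9.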

Additional observations from a re-analysis of the deposited data

Results flagged for a closer look

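The effects of LCO at 1 mg/L and of the ions differed in a test of the difference itself for 6607 targets, among them KZS18100 (log2 fold change 1.67), KZS15806 (1.77), KZS16074 (-3.64) and KZS07994 (-1.30).

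Of 84 groups of 5 values, 11 held a library whose gap to its nearest fellow, divided by the range of the group, passed the critical ratio of 0.71. About 1 of 20 groups of independent normal values would pass it. Most values here were CPM on a linear scale, some of targets chosen by size of change, and the groups reuse the same 20 libraries. The 11 of 84 therefore cannot be set against that rate. In KZS16074 ion replicate 5 lay low with a ratio of 0.886, and control replicate 4 lay high with 0.711. LCO 1 mg/L replicate 5 lay high in 4 targets chosen by size of change, with ratios of 0.996 (rank 9627), 0.979 (rank 9471), 0.963 (rank 3600) and 0.912 (rank 10963). Control replicate 1 lay high in the first and the second of these, with ratios of 1.00 and 0.963. In the target of rank 1392, ion replicate 3 lay high (0.751), and so did LCO 10 mg/L replicate 5 (0.765). LCO 10 mg/L replicate 5 lay low in the share of counts held by its 100 most abundant targets, at 28.9% with a ratio of 0.832.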

How the results depend on the processing

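The total called and its split by direction stayed within 1.5 times of the values given in every alternative, with 5472 to 7398 called when 1 library was left out. Changes over 2-fold numbered 526 and 582 (higher and lower) with targets under a mean of 5 CPM left out, and 536 and 547 in limma on log2(TPM + 1), a scale that shrinks the change of low targets. They ran from 660 to 1212 and from 733 to 1128 with 1 library left out. Changes over 8-fold were the least stable. They numbered 123 higher and 74 lower with no filter, 8 and 15 in limma, 43 higher with the compared groups alone, and 24 higher with the replicate block. Without replicate 5 of both groups they numbered 128 and 84, and without control replicate 1 as well, chosen after seeing the data, 129 and 115. With 1 library left out they ran from 52 to 129 and from 23 to 86, the highest being without ion replicate 5 and LCO 1 mg/L replicate 5. The 100 most abundant targets held 5 to 10 lower calls with 1 library left out and 17 when ranked by TPM. The share of higher targets with control on the LCO 1 mg/L side was 85.2% with targets under a mean of 5 CPM left out and 77.4% in limma, and ran from 79.1% to 85.5% with 1 library left out. For lower targets it was 94% in limma, 90.7% with the block, 87.2% without replicate 5 of both groups, 83.8% without control replicate 1 as well, and 84.7% to 91.1% with 1 library left out. In TPM the differences in share, LCO at 1 mg/L minus ions, turned to -1.47, -1.07 and -0.27 percentage points for the 10, 100 and 1000 most abundant targets, and that in mean length to 11.1 bases, none past the threshold by exact permutation. For the 100 most abundant the difference was 1.56 points with an exact p of 0.0476 after thinning, and ran from 1.22 to 2.01 with 1 library left out. The causes of these changes were not tested. Replicate numbers 1, 3, 5 and 6 occur in both groups. The deviations of libraries with the same number correlated at 0.16, -0.14, 0.17 and -0.19. Libraries with different numbers correlated at -0.34 to 0.28. So few pairs cannot tell whether libraries of the same number shared a batch, and the labels name none. With the replicate block 5560 targets were called, of which 5441 were also called without it, and the target of rank 5533 missed the threshold (log2 fold change 5.87, adjusted p 0.057). Depth limits calls among targets of low counts.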
